A study of Canis lupus familiaris with 10 samples.

Results

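cfa-miR-10a, cfa-miR-10b, cfa-miR-196a and cfa-miR-196b, written here without the species prefix, are miRNAs that lie among the HOX genes. They were chosen by name, and all 4 are among the 320 canine miRNAs listed in the small RNA counts and among the 247 that passed the filter on low counts. The data are 10 libraries, each from the fresh-frozen lymph node of a different dog, 6 with diffuse large B-cell lymphoma (DLBCL1 to DLBCL6) and 4 healthy (Healthy2 to Healthy5). The DLBCL nodes came from canine patients of several breeds and both sexes, by surgical biopsy of an affected peripheral node. The healthy nodes came from young female purpose-bred hound crosses after euthanasia. Dog origin, breed type and sampling therefore follow the diagnosis and cannot be told apart from it, and sex differs between the groups as well. The ages of the patients are not given in the sources used here, and the labels do not say which node was taken.

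The HOX genes are transcription factors that stand in clusters and set position along the body axis in the embryo. In the adult they are also used by blood progenitors, with late HOXA genes kept active in some leukaemias. miR-10 and miR-196 are transcribed from within these clusters and, like other miRNAs, bind partly matching sites in messenger RNAs and lower their translation and stability. HOX messengers themselves are among the known targets, with miR-196 pairing almost perfectly to HOXB8. In the RefSeq annotation of the dog, MIR10A lies between HOXB4 and HOXB5, inside the span of HOXB3, and MIR10B between HOXD8 and HOXD3. MIR196B lies between HOXA9 and HOXA10. Mature miR-196a has 2 loci, MIR196A-1 between HOXB9 and HOXB13 and MIR196A-2 between HOXC10 and HOXC4, and its reads cannot be assigned to one of them. The mature sequences within each pair are nearly identical, so that the authors' counting could move some reads from one name to the other.

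Levels are given on 2 scales, because the direction of some differences depends on the scale. TPM is the deposited value, in which a count is expressed relative to the sum of all miRNA reads of its library. CPM is in the same unit, with that sum first multiplied by edgeR's TMM factor, which ran from 0.698 to 2.03 in DLBCL and from 0.507 to 1.11 in healthy nodes. The libraries held 10686441 to 25784861 miRNA reads in DLBCL and 30432969 to 34709421 in healthy nodes. miR-148a alone accounted for 51.5% to 73.6% of the healthy reads and 17.8% to 39.0% of the lymphoma reads, which leaves a smaller part of the TPM to all other miRNAs in the healthy libraries. DLBCL1, DLBCL2, DLBCL3 and DLBCL5 form a group with a higher percentage of Q30 bases in the study's read statistics, and DLBCL4, DLBCL6 and the 4 healthy libraries a group with a lower one. The higher group holds no healthy library, so a value within a group exists only for DLBCL4 and DLBCL6 against the healthy nodes. In whole nodes, fewer cells of a type and less RNA per cell cannot be told apart.

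miR-10b was the most abundant of the 4 and held a steady share of the healthy libraries, but not of the lymphomas. It measured 23704, 13538, 18669 and 11133 CPM in Healthy2 to Healthy5, which placed it 8th or 9th of all miRNAs in each library. In DLBCL1 to DLBCL6 it measured 11060, 11562, 60141, 9956, 18488 and 4669 CPM. DLBCL3 stood above every healthy library, DLBCL2 and DLBCL5 lay within their range, and DLBCL1, DLBCL4 and DLBCL6 lay below it. In DLBCL3 miR-10b was the 4th most abundant miRNA and took 4.96% of all miRNA reads, against 1.17% to 1.24% in the healthy libraries. The log2 fold change was 0.20 (SE 0.61, adjusted p = 0.853 from edgeR's quasi-likelihood test). The healthy nodes averaged 16761 ± 5595 CPM (SD, n = 4) and the lymphomas 19313 ± 20483 CPM (SD, n = 6). Without DLBCL3 it was -0.56 (adjusted p = 0.350 from edgeR), so this library set its direction, and within the lower Q30 group it was -1.21 (adjusted p = 0.106 from edgeR). The difference passed the threshold in none of these 3 fits.

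On the TPM scale the healthy libraries were almost level for miR-10b. They ranged from 11681 to 12353 TPM, a coefficient of variation of 2.29%, against 33.4% in CPM. DLBCL1 to DLBCL5 all lay above the highest of them, at 12367, 16264, 49554, 17389 and 12910 TPM, and DLBCL6 lay below the lowest, at 9490 TPM. DLBCL1 exceeded the highest healthy library by a small margin only. With total miRNA reads in place of TMM, the log2 fold change of miR-10b was 0.71, and the median over all miRNAs tested moved from 0.13 to 0.82. Relative to that median, miR-10b was at 0.07 under TMM and at -0.11 under total reads.

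**Figure D1:**
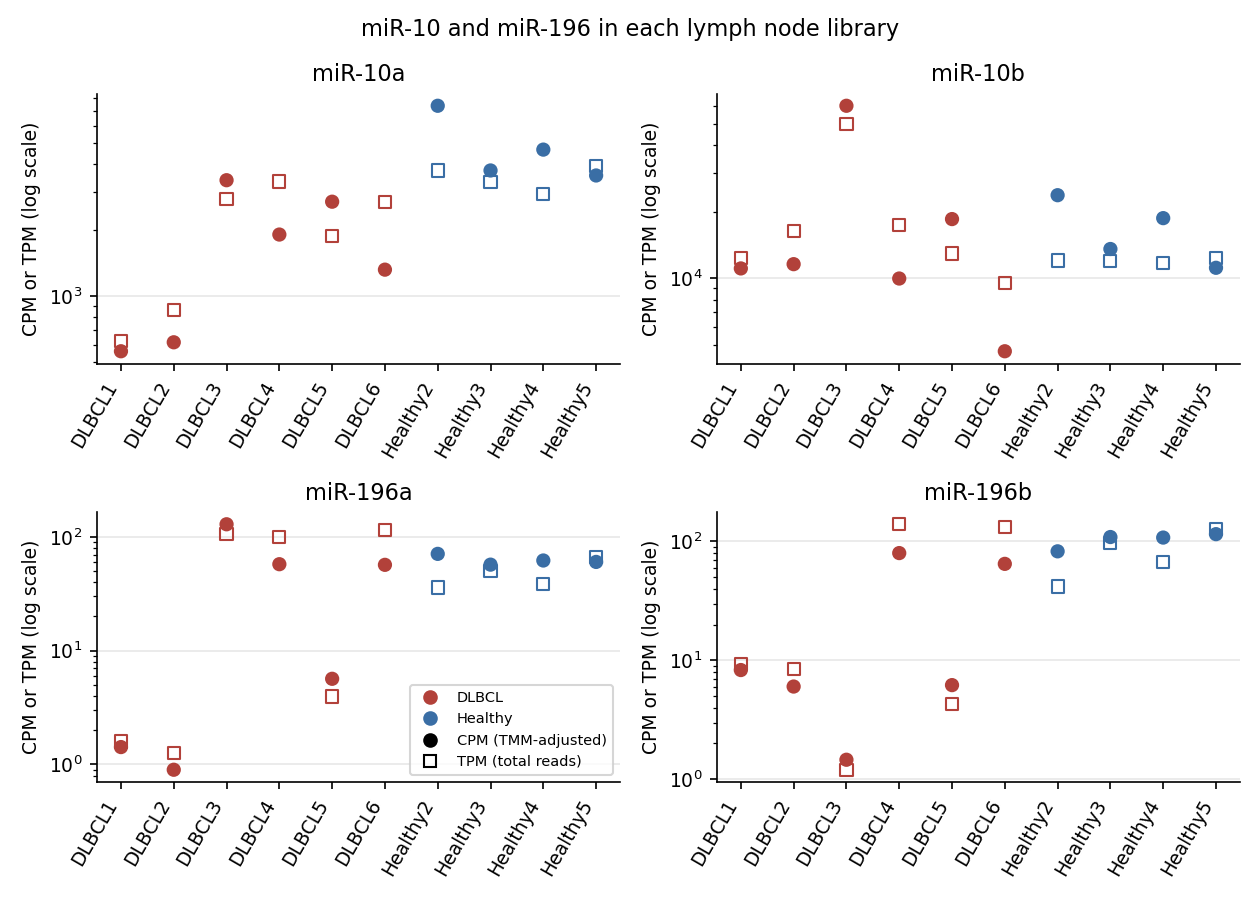
Level of miR-10a, miR-10b, miR-196a and miR-196b in each library (horizontal axis), on a log axis, as TMM-adjusted CPM (filled circles) and as TPM (open squares), with DLBCL in red and healthy nodes in blue. The 4 healthy nodes lie close together for miR-196a (57.1 to 71.0 CPM) and miR-196b (82.5 to 115 CPM), whereas the 6 lymphomas spread over 144-fold and 54.6-fold.

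DLBCL3 also held high levels of some, but not all, markers of other cells. miR-486 and miR-486-3p, listed for red blood cells and known from muscle as well, had nearly the same counts in every library and are read as 1 signal. miR-486 was at 17490.0 CPM in DLBCL3, against 340 to 1892 CPM in the other lymphomas and 68.4 to 208 CPM in healthy nodes. The erythroid miR-451 and miR-144 did not follow it. miR-451 was at 14260 CPM in DLBCL3, below DLBCL1, DLBCL2 and DLBCL5, and miR-144 was at 2.35 CPM there, the lowest of the 6 lymphomas. The 4 red blood cell names together summed to 48885 CPM in DLBCL3, against 5740 to 37371 CPM in the other lymphomas and 873 to 1278 CPM in healthy nodes. This sum counts both miR-486 names, and miR-486-3p added 17133 CPM to it in DLBCL3 but 1805 CPM in DLBCL1, the next highest. DLBCL3 was the highest in this sum only because both names were counted. The 3 skeletal muscle names listed (miR-1, miR-133b and miR-206) summed to 352 CPM in DLBCL3, against 8.82 to 76.1 CPM in all other libraries. Of these, miR-1 at 301 CPM and miR-206 at 51.0 CPM were both highest there, while miR-133b did not exceed 0.753 CPM in any library. The related miR-133c, not on the list, was not highest in DLBCL3. Its log2 CPM was 2.93 there, against 3.29 in DLBCL1 and 3.12 in DLBCL5. The 7 epithelial names (the miR-200 family, miR-203 and miR-205) summed to 130 CPM in DLBCL3, against 18.5 to 70.7 CPM in the other libraries. miR-200c made up 108 CPM of that sum, while miR-203, at 3.25 CPM, was the lowest of the 10 libraries, miR-141 was within the range of the others, and miR-205 was at 0 to 0.329 CPM in every library. None of the muscle or epithelial names tested was a DEM. The part of these cells in the miR-10b of DLBCL3 was not tested.

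miR-10a was lower in all 6 lymphomas than in any healthy node on the CPM scale. It measured 7406, 3751, 4671 and 3558 CPM in Healthy2 to Healthy5, 15th to 23rd of all miRNAs. It measured 560, 616, 3385, 1912, 2701 and 1322 CPM in DLBCL1 to DLBCL6, 31st to 60th. DLBCL1 and DLBCL2 held the least, at 11.6% and 12.7% of the healthy mean, while DLBCL3 was just under the lowest healthy node. Groups that did not overlap in CPM were seen for 13.0% of the miRNAs tested, and for 6.07% with the lymphomas lower. The log2 fold change was -1.47 (SE 0.51, unadjusted p = 0.0136, adjusted p = 0.109 from edgeR), which misses the threshold. With that unadjusted p, miR-10a was one of the 9.31% of miRNAs that were lower in DLBCL at an unadjusted p under 0.05.

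The call for miR-10a depended on the fit. It was a differentially expressed miRNA (DEM, adjusted p under 0.05 and absolute log2 fold change over 1) without DLBCL3, at -1.75 (adjusted p = 0.0387 from edgeR). It was also one within the lower Q30 group, where DLBCL4 and DLBCL6 gave -1.59 against the healthy nodes (adjusted p = 0.0346 from edgeR). The quality-weighted voom fit of limma, in which DLBCL3 had the smallest weight, gave -2.14 (adjusted p = 0.00143). These fits called more miRNAs in general than edgeR on all libraries, which called 14 of 247. The DEMs were 22 of 244 without DLBCL3, 46 of 259 within the lower Q30 group and 46 of 247 in the voom fit. DESeq2, with 45 DEMs among all 320 miRNAs listed, did not make miR-10a one (adjusted p = 0.0925). In TPM the lymphomas were at 627, 866, 2789, 3339, 1886 and 2686, and the healthy nodes at 2922 to 3948, so that DLBCL4 lay within the healthy range and the other 5 below it. In TPM, groups did not overlap for 14.6% of all miRNAs tested, and for 0.81% with the lymphomas lower. The log2 fold change of miR-10a was -0.78 with total reads, and its distance from the median of all miRNAs was -1.60 under both scalings.

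Together, miR-10a and miR-10b summed to 11620, 12178, 63527, 11868, 21189 and 5991 CPM in DLBCL1 to DLBCL6 and to 14691 to 31110 CPM in healthy nodes. This sum does not depend on how reads were divided between the names. DLBCL5 lay within the healthy range, DLBCL3 above it and the remaining 4 below it. The mean log2 sum was 0.42 lower in DLBCL, and with total reads it was 0.28 higher.

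The balance within the miR-10 pair is counted inside each library and does not depend on the scaling between libraries. miR-10a made up 23.8%, 21.7%, 20.01% and 24.2% of the pair's reads in Healthy2 to Healthy5. In DLBCL1, DLBCL2 and DLBCL3 its share was 4.82%, 5.06% and 5.33%, in DLBCL5 12.7%, in DLBCL4 16.1% and in DLBCL6 22.1%. Each share rests on at least 138854 reads, and the widest 95% Wilson interval, for DLBCL6, ran from 21.9% to 22.2% (counting error only, since PCR reads are not independent molecules). DLBCL6 thus lay among the healthy nodes and the other 5 lymphomas below them. The mean log2 ratio of miR-10a to miR-10b in healthy nodes was -1.79 ± 0.16 (SD, n = 4) and that in the lymphomas -3.28 ± 1.09 (SD, n = 6). This difference of -1.48 had p = 0.0286 in a two-sided exact permutation test over libraries, and p = 0.0571 after Benjamini-Hochberg adjustment over the 4 values tested in this way (a ratio and a sum for each pair). The smallest p that 6 against 4 libraries allow is 0.00952. Without Healthy2 or without Healthy5 the exact permutation p was 0.0714, and within the lower Q30 group the difference was -0.31. The 4 lymphomas with the smallest shares are those of the higher Q30 group, and the diagnosis cannot be told apart from that grouping for them.

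DLBCL1 and DLBCL2 had a low miR-10a with a miR-10b near that of Healthy5, whereas DLBCL3 had a miR-10a just under the healthy range with the highest miR-10b. A like share in these 3 libraries therefore came from different levels. Since miR-10a took 4.82% of the pair's reads in DLBCL1, at most that share of miR-10b reads can have been counted under the name miR-10a there. Across the 6 lymphomas, log2 CPM of miR-10a and miR-10b had a Pearson r of 0.56 (exact permutation p = 0.219) and a Spearman rho of 0.54 (exact permutation p = 0.297), with adjusted values of 0.439 and 0.594 over 6 pairs. Without DLBCL1 and DLBCL2, the libraries farthest from the median of miR-10a, r was 0.97 over 4 libraries. The Q30 groups hold 4 and 2 lymphomas, too few for a value within each. None of the 6 pairs had an adjusted p under 0.05. The lowest, for the negative correlation of miR-10b with miR-196b, was 0.133 for Pearson's r and 0.200 for Spearman's rho by exact permutation. For this and the other pairs with miR-196a or miR-196b no size of r is given here, since the lymphomas fall into separate clusters of these.

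**Figure D2:**
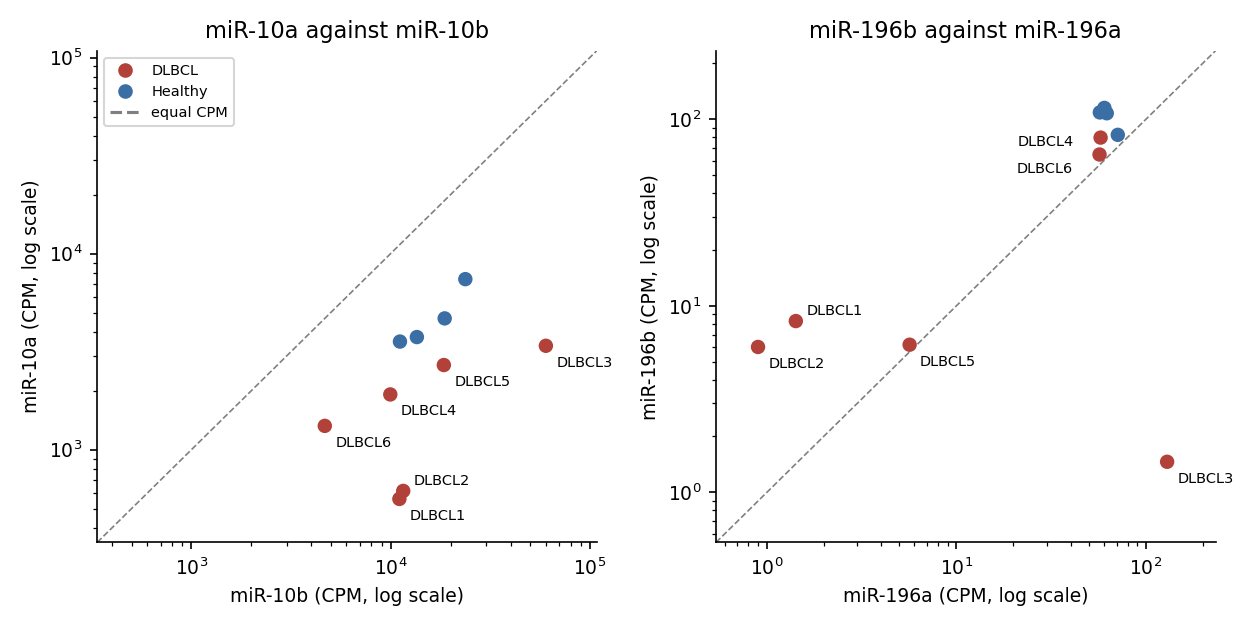
CPM of miR-10a against miR-10b (left) and of miR-196b against miR-196a (right) on log axes, one point per library, DLBCL in red with names and healthy nodes in blue, with a dashed line of equal CPM. On the left DLBCL1 and DLBCL2 have the lowest miR-10a, at 560 and 616 CPM, and DLBCL3 the highest miR-10b, at 60141 CPM, and on the right DLBCL3 is the library far below the line, with 88.6 reads of miR-196a for each of miR-196b.

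miR-196a and miR-196b were minor miRNAs with very uneven levels in the lymphomas. Their healthy levels were narrow in CPM, with coefficients of variation of 9.51% and 13.9%, but not in TPM, with 29.3% and 44.5%. miR-196b measured 82.5, 109, 108 and 115 CPM in Healthy2 to Healthy5. It measured 8.28, 6.02, 1.46, 79.7, 6.19 and 64.7 CPM in DLBCL1 to DLBCL6, from 99, 154, 31, 2260, 95 and 2612 reads. All 6 lymphomas lay below all healthy nodes, as they did for 6.07% of the miRNAs tested in CPM. DLBCL4 and DLBCL6 did so only by a little, at 77.0% and 62.5% of the healthy mean. DLBCL1, DLBCL2, DLBCL3 and DLBCL5 held 1.41% to 8.01% of it. The log2 fold change was -1.90 (SE 0.91, unadjusted p = 0.0577, adjusted p = 0.191 from edgeR). The healthy nodes averaged 103 ± 14.4 CPM (SD, n = 4) and the lymphomas 27.7 ± 34.9 CPM (SD, n = 6). It was not a DEM in that test, and DESeq2 gave an adjusted p of 0.0930. The weighted limma fit, which compares mean logarithms where edgeR compares mean counts, gave -3.03 (adjusted p = 0.00289).

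The 4 lymphomas with little miR-196b are the 4 of the higher Q30 group. Within the lower group the log2 fold change was -0.53, and with the Q30 group as a covariate it was -0.52. The erythroid miR-451 was also higher in these 4 libraries, at 14260 to 33751 CPM, than in DLBCL4 and DLBCL6, at 4563 and 9065 CPM. The level of miR-196b cannot be told apart from either measure in these lymphomas. In TPM, DLBCL4 and DLBCL6 were at 139 and 132, above the healthy range of 41.8 to 128, and the other 4 lymphomas at 1.20 to 9.26, below it. The log2 fold change was -0.76 with total reads, so that the order of DLBCL4 and DLBCL6 against the healthy nodes depended on the scale and that of the other 4 did not.

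miR-196a was also level in healthy nodes on the CPM scale, at 71.0, 57.1, 62.1 and 60.4 CPM in Healthy2 to Healthy5. It measured 1.42, 0.899, 129, 57.6, 5.67 and 56.9 CPM in DLBCL1 to DLBCL6, from 17, 23, 2748, 1634, 87 and 2297 reads. DLBCL1, DLBCL2 and DLBCL5 held 2.27%, 1.43% and 9.04% of the healthy mean, DLBCL4 lay within the healthy range and DLBCL6 just below it, at 92.0% and 90.8%, and DLBCL3 held 206% of it. The log2 fold change was -0.58 (SE 1.06, adjusted p = 0.769 from edgeR). The healthy nodes averaged 62.7 ± 5.96 CPM (SD, n = 4) and the lymphomas 42.0 ± 50.5 CPM (SD, n = 6). It was 0.19 with total reads, -0.14 within the lower Q30 group and -3.45 in the weighted limma fit (adjusted p = 0.0166). In TPM, DLBCL3, DLBCL4 and DLBCL6 were at 107, 101 and 116, above the healthy range of 36.0 to 67.0, and the other 3 lymphomas at 1.26 to 3.96, below it.

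The balance within the miR-196 pair took several forms among the lymphomas. In DLBCL4 and DLBCL6 both miRNAs were near the healthy level, with miR-196a at 42.0% and 46.8% of the pair's reads, against 34.4% to 46.3% in healthy nodes. In DLBCL5 both were low and nearly equal, with 87 and 95 reads. In DLBCL1 and DLBCL2 both were low and miR-196b was 5.82 and 6.70 times as frequent as miR-196a. In DLBCL3 miR-196a was the highest and miR-196b the lowest of the 10 libraries. miR-196b made up 31 of the pair's 2779 reads there, a share of 1.12% (95% Wilson interval 0.787% to 1.58%), so that at most this share of miR-196a reads was counted under the name miR-196b in that library. The mean log2 ratio of miR-196a to miR-196b in healthy nodes was -0.71 ± 0.34 (SD, n = 4) and that in the lymphomas 0.15 ± 3.05 (SD, n = 6). The difference of 0.86 had p = 0.867 in a two-sided exact permutation test over libraries, and 0.867 after adjustment over the same 4 values. Without DLBCL3 the difference was -0.32. The summed pair measured 9.71, 6.92, 131, 137, 11.9 and 122 CPM in DLBCL1 to DLBCL6 and 154 to 175 CPM in healthy nodes.

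The unevenness of miR-196 among the lymphomas is seen when all miRNAs are ranked by the standard deviation of log2 CPM between dogs. In DLBCL miR-196a was 3rd and miR-196b 18th of 247, with standard deviations of 3.0 and 2.20 against a median of 1.07. miR-10a and miR-10b were at 1.08 and 1.23, ranks 123 and 96. In healthy nodes miR-196a and miR-196b were among the least variable in CPM, at 0.13 and 0.21 (ranks 239 and 221), against a median of 0.54, and miR-10a and miR-10b were both at 0.48. In TPM this order was turned around, and of the 4 miRNAs miR-196b and miR-196a had the largest healthy coefficients of variation, at 44.5% and 29.3%, against 13.1% for miR-10a and 2.29% for miR-10b. The healthy dogs shared sex and breed type and the lymphoma patients did not, and the part of this in the spread was not tested.

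**Figure D3:**
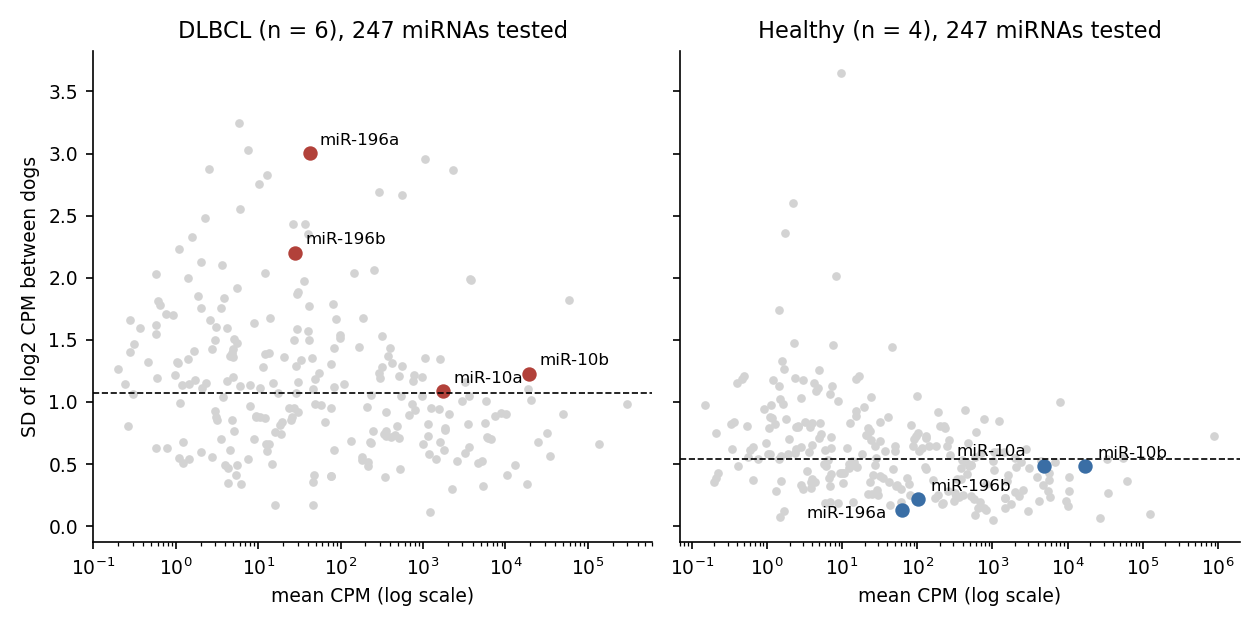
Standard deviation of log2 CPM between dogs (vertical axis) against mean CPM (horizontal axis, log scale) for the 247 miRNAs tested (grey), in 6 DLBCL nodes (left) and 4 healthy nodes (right), with the miR-10 and miR-196 members coloured and the median as a dashed line. miR-196a and miR-196b lie high above the median of 1.07 on the left and below that of 0.54 on the right.

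In all, none of the 4 HOX cluster miRNAs was a DEM with edgeR, where 5.67% of the miRNAs tested were DEMs. At an unadjusted p under 0.05, miR-10a alone passed, where 26.7% of all miRNAs did. DESeq2 called 0 of the 4 as well, where 45 of the 320 miRNAs listed were DEMs. It was fitted without the filter on low counts, so this share has another base than those of edgeR and limma. The weighted limma fit called miR-10a, miR-196a and miR-196b, where 46 of 247 miRNAs were DEMs. miR-10a and miR-196b kept a negative log2 fold change in all 22 alternative fits, while that of miR-10b and that of miR-196a changed sign in at least 1.

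**Figure D4:**
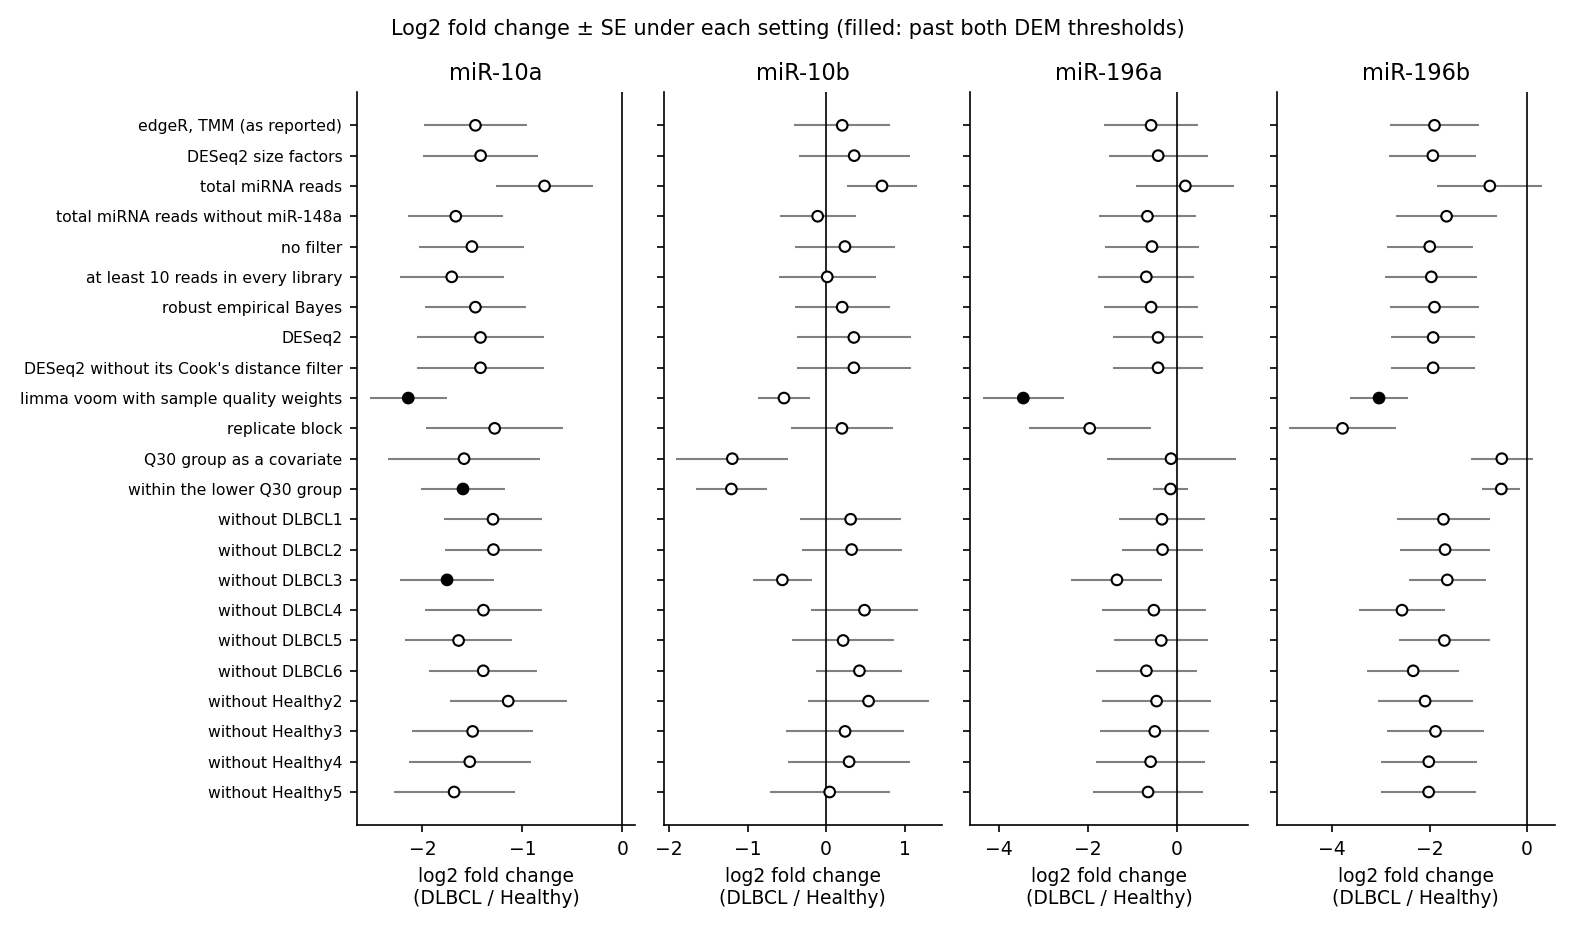
Log2 fold change of DLBCL over healthy (horizontal axis) with its standard error (lines) for each miRNA under each fit (rows), filled where both DEM thresholds were passed. miR-10a and miR-196b lie left of 0 in every row, and the filled points are those of the weighted limma fit for 3 of the 4 miRNAs and, for miR-10a, those of the lower Q30 group alone and of the fit that leaves out DLBCL3.

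The wider miR-10 family includes miR-99a, miR-99b and miR-100, which have a related sequence and come from loci outside the HOX clusters. Neither miR-99a nor miR-99b was a DEM. miR-100 and miR-615, another miRNA of the HOX clusters, have no row under these names in the counts. miR-99a measured 4856 CPM in DLBCL3, the lowest of the 10 libraries, and 162739 CPM in DLBCL5, the highest, against a healthy range of 43878 to 79032 CPM. Its log2 fold change was -0.06 (adjusted p = 0.972 from edgeR). miR-99b was at 283 to 2081 CPM in DLBCL and at 436 to 1142 CPM in the healthy libraries. Its log2 fold change was 0.49 (adjusted p = 0.592 from edgeR). DLBCL3 thus held the highest miR-10b and the lowest miR-99a.

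miR-10 and miR-196 are known from stromal and vascular cells as well as from blood cells, and the cell type markers were read beside them. The 7 names of stroma and vessels, such as miR-126 of endothelium and miR-143 and miR-145 of smooth muscle and fibroblasts, included no DEM. Of these, 6 had a log2 fold change below 0 and 1 above, with a median of -0.46 against 0.13 over all miRNAs tested. Their summed CPM was 19201 to 71090 in DLBCL and 27226 to 55784 in healthy nodes, with DLBCL5 highest and DLBCL3 and DLBCL4 lowest. DLBCL3, with the highest miR-10b and miR-196a, thus had a stromal sum of 19225 CPM. Most of each sum was miR-143, at 15648 to 69210 CPM in DLBCL and 22967 to 50816 CPM in healthy nodes. For miR-126, miR-145, miR-199, miR-214, miR-497 and miR-218, DLBCL3 was the lowest of the 10 libraries. There miR-126 was at 8.85 CPM and miR-145 at 85.0 CPM, against 94.3 to 399 and 575 to 790 CPM in healthy nodes. Of 6 lymphocyte names, 2 were DEMs, miR-150 of resting lymphocytes and miR-146a, both lower in DLBCL, where 2.02% of all miRNAs tested were. The lymphocyte names summed to 13179 to 28433 CPM in DLBCL and 22929 to 41179 CPM in healthy nodes, with reads of every name in every library, so the lymphoid markers of the labelled tissue were present throughout. Of the 4 red blood cell names, 3 were DEMs, all higher, where 3.64% of all miRNAs tested were, and the median log2 fold change was 4.70. These 3 are miR-451 and the near-equal pair miR-486 and miR-486-3p, so they amount to 2 separate signals. The myeloid names miR-223 and miR-147 summed to 4.38 CPM in DLBCL3 and 88.8 CPM in DLBCL4, the lowest and highest of the 10 libraries, and to 18.3 to 41.7 CPM in healthy nodes, and neither was a DEM. The part of these cell types in the levels of miR-10 and miR-196 was not tested.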

How the data were processed

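Small RNA of 10 canine lymph nodes was sequenced, one library per dog, and groups and numbers were taken from the labels. The authors cleaned the reads, mapped them with Bowtie 0.12.9, discarded those of repeats and of other small RNAs, and used miRDeep2 to count the rest on miRBase miRNAs (build CanFam3.1 in the submitters' processing notes). They deposited raw read counts, and TPM values that equal the count over the sum of the listed reads to within 4.55e-05 of that unit. The mature sequences are not given in the sources used here.

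The counts were analysed with edgeR 4.0.16 under R 4.3.3 (TMM, default filter by group, quasi-likelihood test, Benjamini-Hochberg adjustment over 247 miRNAs). The biological coefficient of variation was 0.731. DESeq2 1.42.0 and limma 3.58.1 were alternatives, with the scalings, filters, Q30 grouping, replicate block and omission of each library described in the closing section. Before logarithms 0.5 was added to CPM for ratios and sums, and a prior count of 2 was used for the standard deviations. Permutation tests used scipy 1.17.1 in Python 3.11.15, plots matplotlib 3.10.9. With 10686441 to 34709421 reads per library, counting error is small beside the spread between dogs. Libraries of one group were checked for duplication (smallest chi-squared per degree of freedom 1865), and the edgeR fit was tested on simulated counts.

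The named miRNAs are the 4 members, for each member the 3 miRNAs of most similar pattern, their relatives, and lists of cell type markers. Besides these, miR-148a and miR-133c are named. Members and lists were chosen with earlier results of these data known. The position of HOX neighbours was read from RefSeq's annotation of another dog assembly, so no coordinates are given.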

Additional observations from a re-analysis of the deposited data

Results flagged for a closer look

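Each member's CPM and TPM and the ratio and sum of each pair were examined in each group for a library whose gap to its nearest neighbour was large against the group's range, by Dixon's 95% limit. Of 24 such sets of values 3 had one, and chance alone would pick out about 1 in 20. miR-10b was at 60141 CPM in DLBCL3, and the gap to the next lymphoma was 0.751 of the range of the 6. In TPM it was at 49554, with a gap of 0.803 of the range. In log2 CPM, which was not examined in this way, miR-10b was at 15.9 in DLBCL3, 14.2 in DLBCL5 and 12.2 in DLBCL6. Both flags of miR-10b thus hold for the untransformed scale only. The log2 ratio of miR-196a to miR-196b was 6.05 in DLBCL3, and the gap to the next lymphoma was 0.746 of the range. All 3 are of the same library, and the first pair is the same count on different scales.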

How the results depend on the processing

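The direction of miR-10a and miR-196b held in every fit. miR-10b reversed with total reads without miR-148a (-0.11), limma voom with quality weights (-0.54), the Q30 covariate (-1.20), in the lower Q30 group alone (-1.21), and with DLBCL3 left out (-0.56). miR-196a reversed with total reads (0.19). Calls were gained with limma voom for miR-10a (-2.14), miR-196a (-3.45) and miR-196b (-3.03), and for miR-10a within the lower Q30 group (-1.59). Adjusted p over the 22 alternatives ranged from 0.00143 to 0.367 for miR-10a, from 0.106 to 0.984 for miR-10b, from 0.0166 to 0.962 for miR-196a and from 0.00289 to 0.734 for miR-196b. Without each library in turn the log2 fold changes ranged from -1.75 to -1.14, from -0.56 to 0.54, from -1.34 to -0.32 and from -2.56 to -1.64 in that order, miR-10a being called without DLBCL3 only. DEMs over all miRNAs numbered 14, and 8 with DESeq2's size factors, 23 with total reads, 45 by DESeq2 (49 if its Cook's distance filter is off), 46 with limma voom, 7 with the Q30 covariate, 46 within the lower Q30 group and 1 to 23 without each library (1 without Healthy4, 2 without Healthy2, 3 without DLBCL1, 5 without Healthy3, 6 without Healthy5, 22 without DLBCL3 and 23 without DLBCL4). The log2 ratio of miR-10a to miR-10b differed by -1.77 to -1.28 without each library and by -0.31 within the lower Q30 group, and that of miR-196a to miR-196b by -0.32 (without DLBCL3, reversed) to 1.33. The log2 sum of the miR-10 pair differed by -0.83 to -0.15 without each library, by 0.28 with total reads and by -1.30 within the lower Q30 group (all libraries -0.42). That of the miR-196 pair differed by -2.61 to -1.77, by -1.52 with total reads, by -2.38 with total reads without miR-148a and by -0.36 within the lower Q30 group (all libraries -2.22). The causes were not tested.

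The numbers that Healthy2 to Healthy5 share with lymphomas did not pair the samples, since the lymphomas came from patients and the healthy nodes from purpose-bred dogs. The deviations of same-numbered libraries correlated at 0.264, -0.00921, -0.302 and -0.332, which by itself could not settle the matter. With the replicate number as a block, the log2 fold changes were -1.28 for miR-10a, 0.20 for miR-10b, -1.96 for miR-196a and -3.78 for miR-196b, and 1 miRNA was a DEM.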

Other observations

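For each member, the miRNAs most like it were those with the highest Pearson r of log2 CPM over the 10 libraries after subtraction of the group means. These r values are a description over libraries that share their scaling, and no p is given. For miR-196a and miR-196b the lymphomas fall into separate clusters, so that r only describes which libraries are high or low for both miRNAs. miR-10b was most like miR-486 (r = 0.95), miR-486-3p (0.94) and miR-8803 (0.92), of which miR-486 is a miRNA of red blood cells and muscle. DLBCL3 was the highest library for all of these. miR-8803 was near the floor, at 9.51 CPM in DLBCL3 and 0.297 to 1.11 CPM in the other lymphomas. miR-10a was most like miR-449a (0.79), miR-421 (0.78) and miR-502 (0.75), each highest in DLBCL3 and none a DEM. Also near the floor was miR-449a, at 11.7 CPM in DLBCL3 and 0 to 1.17 CPM in the other lymphomas. The r values of miR-8803 and miR-449a thus rest largely on DLBCL3.

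miR-196b was most like miR-350 (0.91), miR-106b (0.89) and miR-582 (0.87), the last at only 0 to 2.11 CPM in DLBCL. miR-106b, of a cluster driven with the cell cycle gene MCM7, was at 582 and 686 CPM in DLBCL4 and DLBCL6 and at 131 to 285 CPM in the other lymphomas, against 96.7 to 285 CPM in healthy nodes. DLBCL3 was the lowest lymphoma for miR-350, miR-106b and miR-582, as it was for miR-196b. miR-196a was most like miR-1296 (0.83), miR-1306 (0.80) and miR-191 (0.79). Of these, miR-1296 was at a low level, with 1.24 to 9.27 CPM in DLBCL, highest in DLBCL3, and 1.38 to 1.58 CPM in healthy nodes. miR-191 was at 14038, 12949 and 11888 CPM in DLBCL3, DLBCL4 and DLBCL6 and at 7320 to 9335 CPM in DLBCL1, DLBCL2 and DLBCL5, the lymphomas with little miR-196a.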
